A study of Sus scrofa with 35 samples.

Results

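The genes described here are the lysosomal cathepsins CTSB, CTSD, CTSH, CTSK, CTSL, CTSS and CTSZ and the lysosomal membrane proteins LAMP1 and LAMP2, measured in pig back muscle. Members were the non-control array probes whose gene name in the scanner files is one of these 9 symbols. The rule found 31 of 60305 probes, and these cover 7 of the 9 genes, of 11407 genes named on the array: 7 probes for CTSB, 3 for CTSD, 3 for CTSH, 6 for CTSK, 2 for CTSS, 2 for CTSZ and 8 for LAMP2. No probe carries the names CTSL or LAMP1. The files hold 10 probes named CTSL1 and 2 named LAMP-1, older names of the same family, and these 12 are given beside the members and kept out of the counts of members, unless stated. The accession of the CTSL1 probes is listed in the current pig reference under the symbol CTSV, with CTSL among its synonyms, so these probes are called by their file name.

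The samples were longissimus dorsi muscle of castrated male growing pigs, either Creole, Large White or F1 crosses between those breeds. Thermoneutral (TN) pigs were slaughtered at 24 °C, before the temperature was raised, and heat-stressed (HS) pigs after 4 to 5 days of exposure. Exposure was at 30 °C by the sample labels and at 32 °C by the protocol text and the study methods. Each array carried the RNA of 1 muscle sample, with 6 arrays per group of breed and temperature and 5 for F1 HS. Pigs entered at 11 weeks of age per the study methods, so HS pigs were some days older than TN pigs when sampled, and slaughter day and temperature cannot be told apart. Littermates were used within each breed and pigs shared pens, but the labels do not say which arrays share a litter or a pen. The p-values therefore measure the spread between these animals as if they were unrelated, and may be too small.

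Lysosomes are the acidic compartments in which cells break down proteins, lipids and sugars delivered by endocytosis, phagocytosis and autophagy. The cathepsins are proteases of that compartment: B, H, K, L, S and Z are cysteine proteases of the papain family and D is an aspartic protease. LAMP1 and LAMP2 are heavily glycosylated proteins that line the lysosomal membrane, and LAMP2 also takes part in autophagy. In muscle, lysosomal proteolysis works beside the proteasome, and the same enzymes are abundant in macrophages, which reside between the fibres.

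Every probe is 60 bases long. The cathepsins of the papain family have an asparagine in their active site, followed by a serine, a tryptophan and a glycine, and a motif with the letters that can encode these residues was searched. The probes of CTSH, CTSK and CTSL1 that hold it are shown because they carry the same letters in different genes. Capitals mark the motif searched on both strands, which is AA, any 4 bases, then TGGGG.
CTSH, probe A_72_P035971: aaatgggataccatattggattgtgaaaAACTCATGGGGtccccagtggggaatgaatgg
CTSH, probe A_72_P125121: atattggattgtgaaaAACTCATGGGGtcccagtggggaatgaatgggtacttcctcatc
CTSK, probe A_72_P146366: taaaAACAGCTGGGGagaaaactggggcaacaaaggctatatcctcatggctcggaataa
CTSL1, probe A_72_P647599: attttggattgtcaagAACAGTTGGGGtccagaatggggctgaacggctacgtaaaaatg

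Among the probes of the members, CTSL1 and LAMP-1 these 4 hold the motif, 0 held it on the opposite strand, and 0.912% of all probes on the array hold it on either strand. A match is a description of letters and not of a site. The 2 CTSH probes share a run of 31 bases and are therefore no independent measurements. Between probes of different genes among these 9, the longest identical run in 785 pairs was 11 bases on either strand. CTSS was the member with the largest difference between temperatures. Its values below come from probe O9267 unless stated, and the sequence of its other probe is
CTSS, probe A_72_P150601: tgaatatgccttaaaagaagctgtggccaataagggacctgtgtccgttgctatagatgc

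Some probes of a gene read opposite strands. The CTSZ pair below shares 39 bases as reverse complements, marked in capitals, and the CTSD probe O11991 shares 58 bases in that way with A_72_P178086.
CTSZ, probe A_72_P157891: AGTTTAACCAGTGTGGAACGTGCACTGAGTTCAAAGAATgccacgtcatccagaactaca
CTSZ, probe O11960: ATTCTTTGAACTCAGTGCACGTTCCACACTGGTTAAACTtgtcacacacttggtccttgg

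The first of the CTSZ pair was well above background on 35 of 35 arrays and the second on 13, and their log2 values correlated with r = 0.88 across arrays. CTSB probes A_72_P095036 and A_72_P562909 hold the same 60 bases. Probes had to be well above background in 75% of the arrays of any 1 group. This kept 28 of the 31 member probes and all 12 of the CTSL1 and LAMP-1 probes, and the brightest kept probe then stood for its gene. The probes left out were O11954 of CTSK, well above background on 1 array, O11960 of CTSZ and O1617 of LAMP2, each on 13. Values are normalised intensities on the log2 scale. Levels are compared only within a probe, apart from the choice of the brightest probe and the percentiles of the muscle markers below.

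Skeletal muscle markers were at a median percentile of 99.7 among the 9552 genes with a kept probe, and their lowest was at 92.4, as the label of the tissue has it. Per array, 58.4% to 75.9% of probes exceeded background well. The 75th percentile of the unnormalised intensity (log2) was 0.18 higher (SE 0.07, permutation p = 0.0151) in HS than in TN arrays, and values with that percentile as a covariate are given with the results.

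The first question was whether the cathepsins and LAMP2 differed between HS and TN whatever the breed. All 7 members had a higher mean in HS, where the difference was positive for 4167 of 9552 genes. Of the members 3, CTSS, CTSH and CTSK, passed the limma test at an adjusted p below 0.05 over all probes. Over all kept probes 16.0% passed in either direction and 7.73% were higher in HS. Over the brightest kept probe of each gene, which is how the members are counted, 18.2% passed in either direction and 8.45% were higher in HS. In RNA of whole muscle, more cells of a type and more RNA per cell cannot be told apart. The median log2 difference was 0.63 over the 7 members and -0.02 over the 9552 genes. Counting CTSL1 and LAMP-1 as well, an addition made after seeing the data, the count was 3 of 9.

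Cathepsin S, a protease of antigen-presenting cells that trims the invariant chain of MHC class II, had the largest difference. In Creole pigs CTSS ranged from 9.27 to 12.30 with a median of 11.18 in TN, and from 11.92 to 14.45 with a median of 12.70 in HS. In Large White pigs it ranged from 10.15 to 13.67 with a median of 11.47 in TN, and from 11.59 to 14.42 with a median of 12.56 in HS. In F1 pigs TN arrays ranged from 10.97 to 13.66 with a median of 11.78, and the 5 HS arrays were at 12.53, 12.53, 12.75, 12.79 and 11.68. HS and TN arrays overlapped in each breed: F1 TN replicate 2 lay above every F1 HS array, and Large White TN replicate 6 above 5 of the 6 Large White HS arrays. Over the breeds the level averaged 11.58 ± 1.14 over 18 TN arrays and 12.77 ± 0.83 over 17 HS arrays (mean ± SD). The difference was 1.19 on the log2 scale (SE 0.33, limma adjusted p = 0.0134), or 2.28-fold, and 15 of 17 HS arrays lay above the TN mean of their breed. The other CTSS probe gave 1.18 (SE 0.33, limma adjusted p = 0.0138). The call of CTSS held when any 1 of the 35 arrays was left out, with differences from 1.05 to 1.32.

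Cathepsin H, an aminopeptidase of the lysosome, followed. CTSH ran from 9.28 to 12.23 in Creole TN (median 10.98) and from 11.13 to 13.94 in Creole HS (median 12.40). In Large White it ran from 9.95 to 13.22 in TN (median 11.17) and from 11.23 to 14.08 in HS (median 12.10). In F1 the TN arrays ran from 10.91 to 13.04, and the HS arrays were at 11.73, 12.02, 12.29, 12.29 and 11.14. The groups overlapped in every breed, and the F1 HS arrays lay inside the range of F1 TN. The level averaged 11.33 ± 0.99 over 18 TN arrays and 12.26 ± 0.92 over 17 HS arrays (mean ± SD), a difference of 0.93 (SE 0.32, limma adjusted p = 0.0402), with 15 of 17 HS arrays above the TN mean of their breed. All 3 CTSH probes passed, at 0.90 to 0.93. This call was close to the threshold. It was lost without any 1 of 16 arrays, with values of 0.81 to 0.93 and limma adjusted p from 0.0505 to 0.0719. These were Creole TN replicates 1, 4, 5 and 6, Creole HS replicates 1, 4 and 6, F1 TN replicates 3, 4 and 5, F1 HS replicate 4, Large White TN replicates 3, 4 and 5, and Large White HS replicates 1 and 5.

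Cathepsin K, the collagen-degrading protease best known from osteoclasts, changed by less but with a narrower spread. CTSK ran from 10.95 to 12.22 in Creole TN (median 11.97) and from 11.996 to 12.91 in Creole HS (median 12.33). In F1 the TN arrays ran from 11.80 to 12.55 (median 12.07), and the HS arrays were at 12.36, 12.30, 12.28, 12.51 and 12.02. In Large White it ran from 11.91 to 13.03 in TN (median 12.14) and from 12.41 to 13.06 in HS (median 12.53). In Large White every HS array lay above 4 of the 6 TN arrays. The level averaged 12.08 ± 0.42 over 18 TN arrays and 12.45 ± 0.31 over 17 HS arrays (mean ± SD), a difference of 0.36 (SE 0.11, limma adjusted p = 0.0264), or 1.29-fold. The difference was positive at all 5 kept CTSK probes, from 0.25 to 0.36, and passed at 1 of them, the brightest. It held when any 1 array was left out, with limma adjusted p from 0.00736 to 0.0470. In the current pig reference CTSK and CTSS are neighbours, with 0 genes listed between them.

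**Figure D1:**
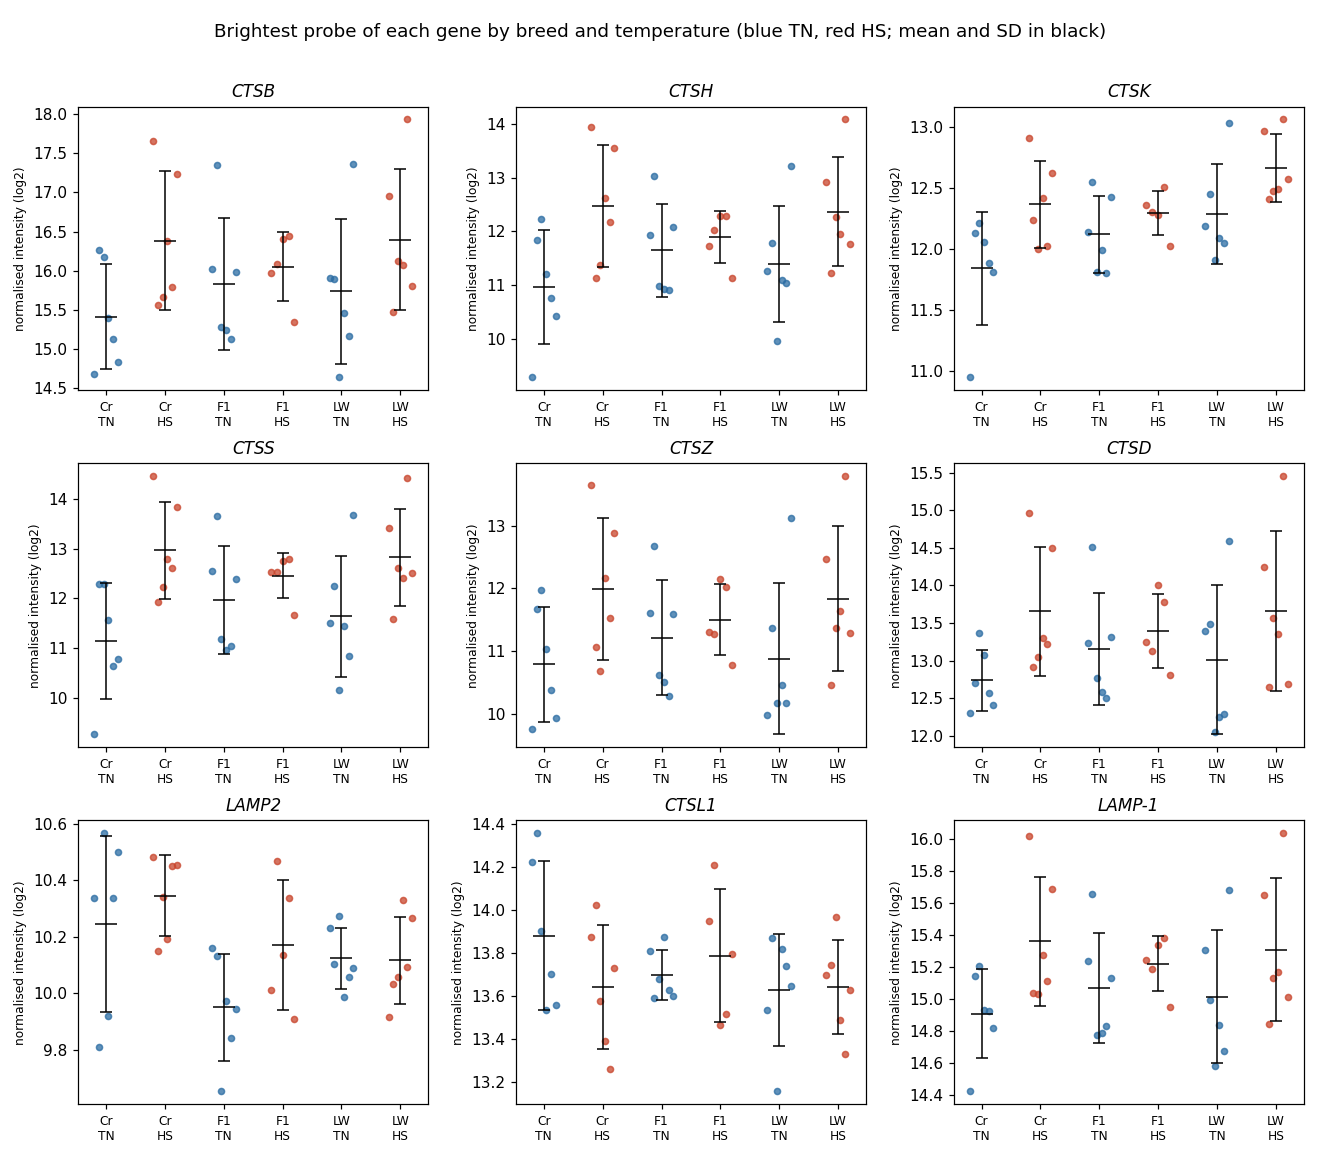
Normalised intensity (log2) of the brightest kept probe of the 7 members and of CTSL1 and LAMP-1, 1 panel per gene with its own axis, for Creole (Cr), F1 and Large White (LW) pigs. Points are arrays (6 per group, 5 for F1 HS), black bars are the mean and SD. HS and TN arrays overlap in each breed for every gene, and in the CTSS panel the highest TN arrays of F1 (13.66) and Large White (13.67) lie above all and all but 1 of the HS arrays of their breed.

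The remaining cathepsins had positive differences that did not pass. Cathepsin B, an abundant cysteine protease of most cells, averaged 15.66 ± 0.79 over 18 TN arrays and 16.29 ± 0.76 over 17 HS arrays (mean ± SD), a difference of 0.63 (SE 0.26, limma adjusted p = 0.0893). Cathepsin Z, a carboxypeptidase, averaged 10.96 ± 0.98 over 18 TN arrays and 11.79 ± 0.97 over 17 HS arrays (mean ± SD), a difference of 0.83 (SE 0.32, limma adjusted p = 0.0722). Cathepsin D, the aspartic protease, averaged 12.97 ± 0.73 over 18 TN arrays and 13.58 ± 0.81 over 17 HS arrays (mean ± SD), a difference of 0.62 (SE 0.26, limma adjusted p = 0.0941). HS arrays above the TN mean of their breed numbered 15 of 17 for CTSB, 14 for CTSZ and 13 for CTSD. Whether they passed depended on which arrays were included, among them 2 TN arrays with high values. Without F1 TN replicate 2 CTSB (0.73, limma adjusted p = 0.0298), CTSD (0.71, 0.0374) and CTSZ (0.94, 0.0324) passed, and without Large White TN replicate 6 they passed too (0.73, 0.0332; 0.72, 0.0363; and 0.98, 0.0227), so that 6 of 7 members were called. The share of all genes called without either TN array is not given here. Without Large White HS replicate 2, CTSZ alone of these passed (0.92, limma adjusted p = 0.0453). Other omissions lowered the differences, to 0.53 for CTSB, 0.50 for CTSD and 0.70 for CTSZ at the least. The largest limma adjusted p when 1 array was left out were 0.153, 0.162 and 0.125.

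LAMP2 was the member that moved least. Its values ran from 9.81 to 10.57 in Creole TN (median 10.34) and from 10.15 to 10.48 in Creole HS (median 10.40), from 9.65 to 10.16 in F1 TN (median 9.96), and from 9.99 to 10.27 in Large White TN (median 10.096) and 9.92 to 10.33 in Large White HS (median 10.07). The F1 HS arrays were at 10.01, 10.47, 10.14, 10.34 and 9.91. Its difference between HS and TN was 0.10 (SE 0.07, limma adjusted p = 0.323), with 10 of 17 HS arrays above the TN mean of their breed. LAMP-1 averaged 14.996 ± 0.34 over 18 TN arrays and 15.30 ± 0.35 over 17 HS arrays (mean ± SD), a difference of 0.30 (SE 0.12, limma adjusted p = 0.0676). LAMP-1 passed without Large White HS replicate 2 (0.34, limma adjusted p = 0.0424), F1 TN replicate 2 (0.34, 0.0279), F1 HS replicate 5 (0.33, 0.0489) or Large White TN replicate 6 (0.35, 0.0271). CTSL1 averaged 13.73 ± 0.27 over 18 TN arrays and 13.68 ± 0.26 over 17 HS arrays (mean ± SD), a difference of -0.05 (SE 0.09, limma adjusted p = 0.757), which became 0.02 when arrays were scaled to the spike-ins. For CTSL1, 7 of 17 HS arrays lay above the TN mean of their breed. The cysteine cathepsins ranged from -0.05 for CTSL1 to 1.19 for CTSS, and whether those differences themselves differ was not tested.

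The probes of a gene mostly gave 1 picture. Of the 28 kept member probes 26 had a positive difference and 8 passed (28.6%, against 16.0% of all kept probes), namely 2 of 7 for CTSB, all 3 for CTSH, 1 of 5 for CTSK and both for CTSS. The 2 CTSB probes that passed (0.78 and 0.77) are those of identical sequence. A different picture came from the CTSB probe O12329, whose difference was -0.00 (SE 0.08) and whose values correlated with the brightest CTSB probe at r = -0.44, where the other 5 correlated at 0.949 or more. LAMP2 probes correlated with the brightest one at r from -0.38 to 0.60, so its brightest probe stands for the others less well. All 10 CTSL1 probes had negative differences, from -0.12 to -0.05, and none passed.

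**Figure D2:**
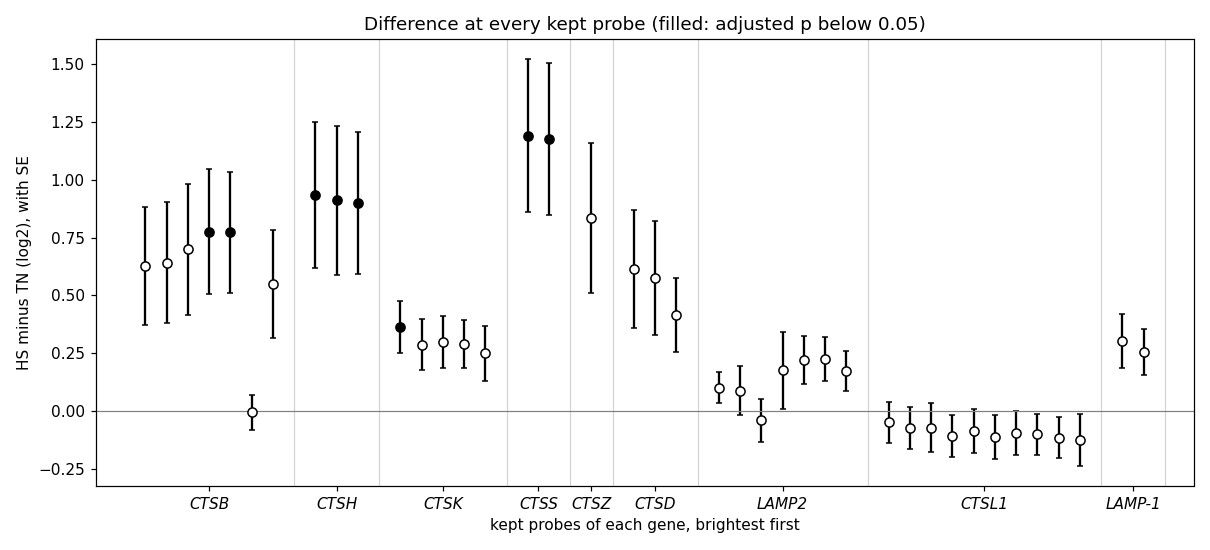
Difference between HS and TN (log2, with SE) at every kept probe, grouped by gene with the brightest probe first. Filled points passed at an adjusted p below 0.05. The CTSS and CTSH probes lie between 0.90 and 1.19 and the CTSL1 probes between -0.12 and -0.05.

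Arrays are grouped on slides, each with 1 scan time. Slides 1 to 4 held 8 arrays each, 4 of them HS. With breed taken into account, the difference of CTSS was 1.85 on slide 1, -0.30 on slide 2, 2.25 on slide 3 and 0.97 on slide 4. CTSH gave 1.66, -0.43, 1.77 and 0.77, and CTSK gave 0.78, -0.04, 0.57 and 0.25. The other 4 members were likewise positive on slides 1, 3 and 4 and negative on slide 2, where they lay between -0.47 for CTSZ and -0.05 for LAMP2. Slide 5 held 3 arrays, too few to separate breed from temperature. Slide 2 held F1 TN replicate 2, the F1 TN array with the highest values of all 6 cathepsins. In Creole on that slide CTSS was at 12.30 and 11.57 in TN and at 11.92 in HS. In Large White it was at 12.24 in TN and at 11.59 and 12.62 in HS. What set slide 2 apart was not tested. With slide as a fixed block CTSS (1.25, limma adjusted p = 0.00932), CTSH (1.00, 0.0249) and CTSK (0.38, 0.0187) passed, as did CTSZ (0.89, 0.0497) and LAMP-1 (0.32, 0.0470).

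Whether the breeds responded alike was examined within each breed and with the interaction. In Creole the differences ran from 0.10 for LAMP2 to 1.83 for CTSS, and 0 of 7 members were called, beside 2.18% of genes and 1.91% of kept probes. An unadjusted limma p below 0.05 was reached by 6 members and by 23.9% of genes. CTSS in Creole (1.83, SE 0.56, limma adjusted p = 0.0706) passed without Creole TN replicate 2 (2.06, 0.0435), Creole TN replicate 3 (2.06, 0.0442), Creole HS replicate 2 (2.04, 0.0432) or Large White TN replicate 6 (1.83, 0.0498). In F1 they ran from 0.17 for CTSK to 0.49 for CTSS (SE 0.59), and 0 of 7 were called, 0 with an unadjusted limma p below 0.05 (9.36% of genes), beside 0% of genes and 0.00482% of kept probes. In Large White they ran from -0.01 for LAMP2 to 1.19 for CTSS (SE 0.56), and 0 of 7 were called, 1 with an unadjusted limma p below 0.05 (17.3% of genes), beside 0.0105% of genes and 0.00482% of kept probes. The interaction called 0 of 7 members and 0% of kept probes by the limma F-test, where 1593 probes had an unadjusted p below 0.05, with 0 members at an unadjusted p below 0.05 and the smallest adjusted p at 0.963. The order Creole, Large White and F1 in the size of the CTSS difference was therefore not shown to be a difference between breeds.

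**Figure D3:**
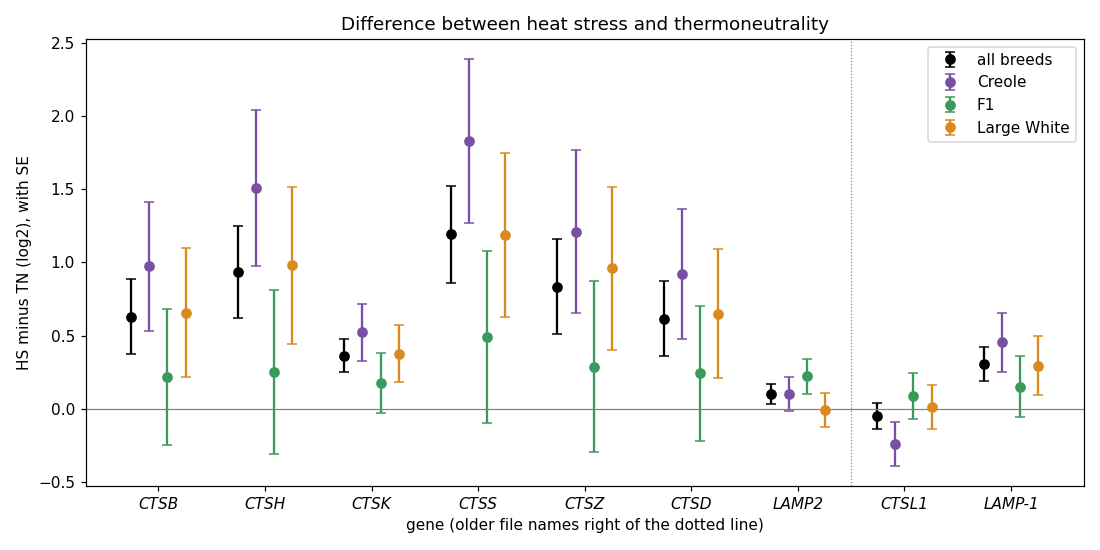
Difference between HS and TN (log2, with SE) over all breeds and within each breed, by gene, in the additive and the group-means fits. CTSS differs by 1.19 over all breeds, by 1.83 in Creole, by 0.49 in F1 and by 1.19 in Large White, with SEs of 0.33 to 0.59.

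Breed differences were compared with temperature in the model. Between Creole and Large White 0 of 7 members were called, where 3.70% of genes and 3.64% of kept probes were, and 2 members, CTSK and LAMP2, had an unadjusted limma p below 0.05, as had 16.0% of genes. CTSK was lower in Creole by -0.37 (SE 0.14, limma adjusted p = 0.143), and its 5 kept probes lay between -0.40 and -0.37. LAMP2 was higher by 0.18 (SE 0.08, limma adjusted p = 0.285). Against Large White 0 of 7 members were called in F1 (0 with an unadjusted limma p below 0.05 beside 10.9% of genes, and 0.304% of genes and 0.525% of kept probes called), and against Creole 0 of 7 (1 with an unadjusted limma p below 0.05, LAMP2 at -0.24 with SE 0.08, beside 8.68% of genes, and 0.356% of genes and 0.477% of kept probes called).

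One LAMP2 probe departed from this. A_72_P717088 averaged 8.13 ± 0.38 over 12 Creole arrays, 8.44 ± 0.15 over 11 F1 arrays and 8.73 ± 0.24 over 12 Large White arrays (mean ± SD). Its difference between Creole and Large White was -0.59 (SE 0.11, limma adjusted p = 0.00136), and Creole arrays ran from 7.67 to 8.80 against 8.41 to 9.26 in Large White. The other 6 kept LAMP2 probes had positive differences between these breeds, from 0.01 to 0.18, and none passed. The probe was singled out after its values were seen, and what sets it apart was not tested.

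Ordered by group mean, CTSS, CTSH and CTSZ were highest in Creole HS, then Large White HS, F1 HS, F1 TN, Large White TN and Creole TN. CTSB and CTSD had the same order with Large White HS ahead of Creole HS. For no gene of the 9 was the step between 2 neighbouring groups larger than the larger of their SDs. The largest steps were 0.50 for CTSS, between Large White TN and Creole TN, and 0.47 for CTSH, between Large White HS and F1 HS.

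The members differed in how much they varied between pigs of the same group. The SD within groups was 1.02 for CTSS and CTSZ, 0.98 for CTSH, 0.81 for CTSB and 0.80 for CTSD, which put these 5 between the percentiles of 98.4 and 99.4 among 9552 genes, where the median SD was 0.22. CTSK had an SD of 0.35 and LAMP2 of 0.20, at percentiles of 81.9 and 40.2. From its lowest to its highest array CTSS spanned 36.3-fold and LAMP2 1.88-fold.

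The cathepsins varied together. After the group means were removed, the 15 pairs among CTSB, CTSD, CTSH, CTSK, CTSS and CTSZ correlated over the 35 arrays with r from 0.80 to 0.98 and a median of 0.92. LAMP-1 joined them with r from 0.88 to 0.97. LAMP2 correlated with the other genes at r from -0.19 to 0.15, and CTSL1 at r from -0.19 to 0.03. For LAMP2 this holds for its brightest probe, which stands for its other probes less well. These values describe arrays that share their normalisation, and they carry no test. Of the 35 arrays, Creole TN replicate 1 had the lowest mean over the 6 and Large White HS replicate 5 the highest.

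**Figure D4:**
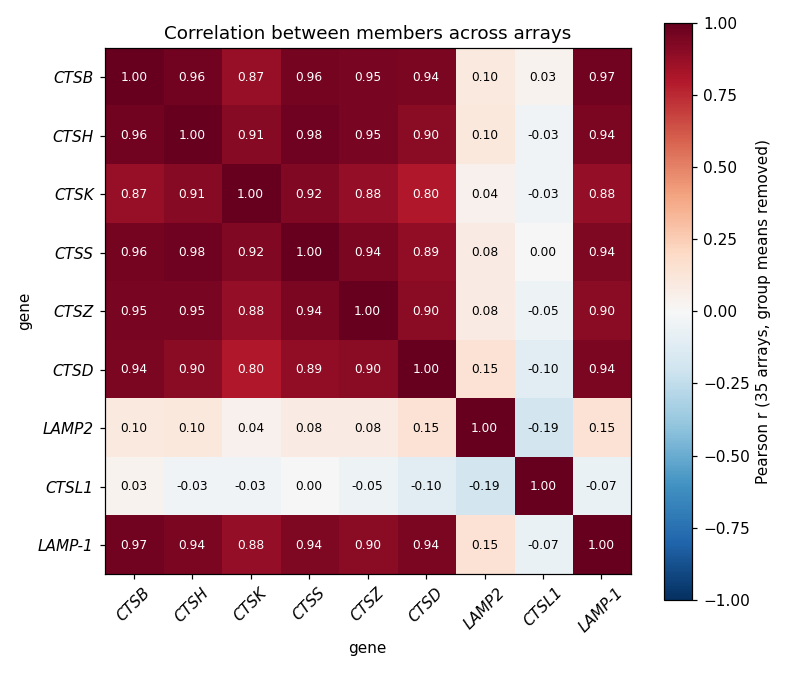
Pearson r between the brightest probes of the 9 genes over 35 arrays, with the mean of each breed and temperature group removed. The 6 cathepsins and LAMP-1 form a block with r of 0.80 to 0.98, and LAMP2 and CTSL1 lie outside it.

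The genes most like each member were taken as the 3 with the highest r over the 35 arrays after the group means were removed. For CTSS these were GPNMB (r = 0.98), a glycoprotein of macrophages, VAV1 (0.98), a signalling protein of blood cells, and CYBA (0.98), a subunit of the phagocyte NADPH oxidase. For CTSH they were GPNMB (0.98), CYBA (0.98) and CTSS (0.98), and for CTSK the galectin LGALS3 (0.93), CTSS (0.92) and GPNMB (0.92). For CTSB they were BASP1 (0.99), HCLS1 (0.98) and LCP1 (0.98), the last a leukocyte plastin, and for CTSZ SH3BGRL3 (0.97), vimentin VIM (0.97) and HCLS1 (0.97). CTSD was most like the ferritin light chain FTL (0.96), the proton pump subunit ATP6V0B (0.96) and prosaposin PSAP (0.95), a precursor of lysosomal activators. LAMP2 was most like the phosphatase OCRL (0.70), DGAT1 (0.59) and PLEKHM2 (0.55). At least 0.9 was reached by 279 other genes for CTSB, 179 for CTSH, 178 for CTSZ, 168 for CTSS, 69 for CTSD and 13 for CTSK of 9540, and by 0 for LAMP2 and CTSL1.

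Macrophage markers moved with the cathepsins. Of 18 listed macrophage markers 15 had a kept probe, all 15 had a positive difference between HS and TN, and 9 passed, the largest being lysozyme LYZ (2.26, limma adjusted p = 0.00333), the complement receptor VSIG4 (1.24, 0.000606) and FCER1G (0.99, 0.0156). Over all genes 4167 of 9552 had a positive difference and 18.2% passed. MARCO, ITGAM and ADGRE1 had no probe of that name. CD68, among the 15, is also on the list of other lysosomal membrane proteins. The mean of the 15 ran from 8.05 to 11.40 in TN and from 10.07 to 11.78 in HS, 0.86 higher in HS by the model with breed (SE 0.23, permutation p = 0.0008, and 0.0018 after adjustment for 9 measures), and exceeded the TN mean of the breed in 15 of 17 HS arrays. On slides 1 to 4 that difference was 1.07, 0.12, 1.57 and 0.70, smallest on the slide where the cathepsins were negative. The marker list was chosen with earlier results of these data known, so the permutation p is not independent of those results. The fibroblast and matrix mean was also higher in HS (0.31, adjusted permutation p = 0.00054). So were the leukocyte (0.46, 0.017) and osteoclast means (0.59, 0.00661). Blood cell (-0.62, 0.00018) and skeletal muscle means (-0.12, 0.00174) were lower, and the adipocyte mean did not pass (0.09, 0.417).

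With the group means removed, the macrophage mean correlated with CTSS at r = 0.96 (rho = 0.96), CTSH at 0.93 (rho = 0.94), CTSK at 0.90 (rho = 0.87), CTSB at 0.89 (rho = 0.95), CTSZ at 0.87 (rho = 0.91) and CTSD at 0.80 (rho = 0.87) over 35 arrays. Each of these 6, and LAMP-1 at 0.88 (rho = 0.92), had permutation p = 1e-05, the smallest that 100000 permutations can give, and the same value adjusted over the 9 relations. These p-values are against no relation at all, on arrays that share their normalisation. An r of at least 0.9 with CTSS was also reached by 168 of 9540 other genes (1.76%), and which cell types express these genes was not tested. For the brightest LAMP2 probe r was 0.03 (rho = 0.12, permutation p = 0.880 and 0.520, adjusted 0.880 and 0.585) and for CTSL1 0.04 (rho = 0.04, permutation p = 0.844 and 0.848, adjusted 0.880 and 0.848). Without the 2 arrays farthest from the median macrophage mean, r was 0.95 for CTSS, 0.92 for CTSH, 0.86 for CTSK, 0.92 for CTSB, 0.91 for CTSZ and 0.84 for CTSD. Within slides 1 to 4 r for the 6 cathepsins lay between 0.74 and 0.97, apart from CTSK on slide 2 at 0.50.

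With the macrophage mean as a covariate 0 of 7 members passed, and the differences of CTSS (-0.03, SE 0.12), CTSH (-0.20, SE 0.14), CTSK (-0.02, SE 0.06), CTSB (-0.25, SE 0.14), CTSD (-0.18, SE 0.18) and CTSZ (-0.25, SE 0.20) were below 0. LAMP2 stayed at 0.10 (SE 0.08). With the mean of the leukocyte markers in its place the count was also 0, with CTSS at 0.28 (SE 0.09, limma adjusted p = 0.0581), CTSH at 0.08 and CTSK at 0.09. With the array's 75th percentile of intensity as a covariate it was 0 too, with CTSS at 0.69 (SE 0.31, limma adjusted p = 0.196), CTSH at 0.44 and CTSK at 0.20. Those means were measured on the same arrays as the members. The share of all genes called with these covariates is not given here, but calls fell outside the members too. With the macrophage mean as a covariate 0 of 15 fibroblast markers were called, where 6 passed without it. Of 15 skeletal muscle markers 0 were called, where 1 was higher and 3 lower without it. Cathepsin inhibitors had 1 called higher without it, and 1 higher and 1 lower with it.

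**Figure D5:**
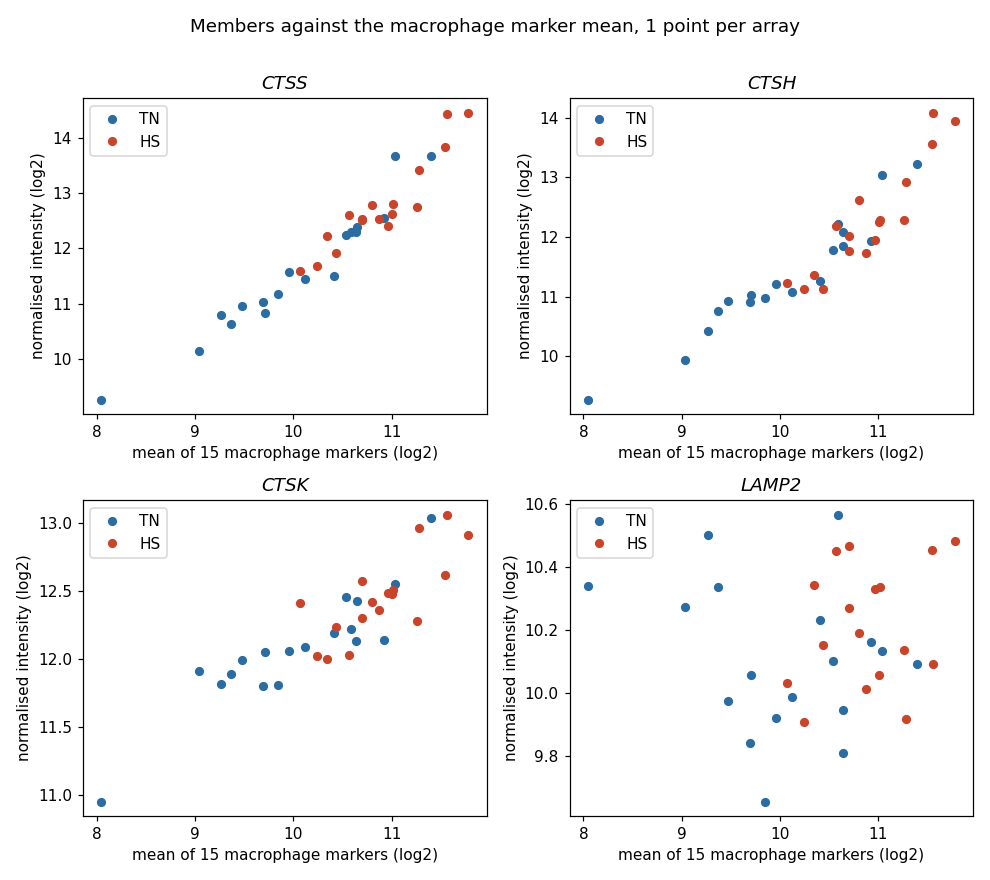
Normalised intensity (log2) of CTSS, CTSH, CTSK and LAMP2 against the mean of 15 macrophage markers (log2), 1 point per array, TN in blue and HS in red. CTSS, CTSH and CTSK rise along the marker mean in both colours (r of 0.90 to 0.96 with group means removed), and the brightest LAMP2 probe does not (r = 0.03).

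Other lists were read in the same way, by counts and medians beside the 18.2% of genes called and the median of -0.02. Of 14 leukocyte markers with a kept probe 2 passed, both higher: LAPTM5 (1.26, limma adjusted p = 0.000896), a lysosomal membrane protein of blood cells that is also on the membrane list, and CD53 (0.90, 0.0388). Their median difference was 0.37, and 6 passed with array weights. Of 15 fibroblast and matrix markers 6 passed, all higher, with a median of 0.32, led by fibronectin FN1 (0.84, limma adjusted p = 0.0105), COL6A3 (0.40, 0.00436) and lumican LUM (0.39, 0.00534). Of 5 osteoclast genes 1 passed, the phosphatase ACP5 (1.64, limma adjusted p = 0.000343), which macrophages also express. Blood cell markers were lower, with HBB at -1.21 (limma adjusted p = 0.000536) and AHSP at -0.44 (0.0479) among 3. Endothelial markers had a median of -0.20, with VWF at -0.36 (limma adjusted p = 0.00226). The endothelial mean per array differed by -0.18 between HS and TN (SE 0.07, adjusted permutation p = 0.017), but this did not pass under median scaling (-0.12, 0.0983) or scaling to spike-ins (-0.04, 0.567). Adipocyte markers had a median of 0.04, with 0 of 6 called. Skeletal muscle markers had a median of -0.08, with 1 of 15 called higher, desmin DES (0.24, limma adjusted p = 0.0031), and 3 lower, TTN (-0.37, 0.017), MYH2 (-0.21, 0.0144) and RYR1 (-0.21, 0.0499). That split moved with the scaling: 0 were called higher and 12 lower under 75th percentile scaling (median -0.30) and with the processed signal (-0.31), 0 and 8 under median scaling (-0.23), and 1 and 1 under scaling to spike-ins (-0.15).

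Among the other proteases and their inhibitors, 2 of 8 proteases rose, cathepsin C CTSC (0.51, limma adjusted p = 0.00396), which activates granule proteases, and the carboxypeptidase PRCP (0.41, 0.0427), and CTSW of cytotoxic lymphocytes fell by 0.16 on the log2 scale (limma adjusted p = 0.0468). Their median was 0.16. The list names CTSV, the current symbol of the CTSL1 probes, but those probes went by their file name and were not counted in it. Of 6 inhibitors cystatin C CST3, the main extracellular inhibitor of cysteine cathepsins, rose by 0.80 (SE 0.13, limma adjusted p = 0.00017), and the other 5 did not pass. CST3 averaged 14.58 ± 0.47 over 18 TN arrays and 15.37 ± 0.26 over 17 HS arrays (mean ± SD).

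Of 24 lysosomal hydrolases and activators 9 rose and 0 fell, with a median of 0.26. Among those that rose were the acid lipase LIPA (1.12, SE 0.27, limma adjusted p = 0.00511) and arylsulfatase A ARSA (0.70, SE 0.11, 0.000171). Of 15 other lysosomal membrane proteins 4 rose and 1 fell, with a median of 0.17, among them LAPTM5, the cholesterol carrier NPC2 (0.58, limma adjusted p = 0.015), which is soluble, and the tetraspanin CD63 (0.31, 0.0305), while CLN3 fell (-0.23, 0.0421). With the macrophage mean as a covariate 1 of the 24 hydrolases was called higher and their median was -0.03.

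The machinery that acidifies and builds lysosomes was read in the same way. Of 16 subunits of the V-ATPase, the proton pump of the lysosome, 0 rose and ATP6V1E1 fell by 0.21 on the log2 scale (limma adjusted p = 0.0144), with a median of 0.13. Of 25 genes of lysosome biogenesis and sorting 3 rose, GGA2 (0.33, limma adjusted p = 0.00677), AP3B1 (0.21, 0.0401) and VPS41 (0.16, 0.0346), and 2 fell, RRAGA (-0.16, 0.0366) and GGA3 (-0.13, 0.0461), with a median of 0.06. Of 21 autophagy genes 2 rose, BNIP3L (0.23, limma adjusted p = 0.0267) and GABARAP (0.21, 0.0149), and 2 fell, the kinase ULK1 (-0.54, 0.00801) and ATG9A (-0.29, 0.00329), with a median of -0.05.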

How the data were processed

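Per the labels and the study methods, total RNA of each muscle was turned into Cy3-labelled cRNA for 1-colour porcine Agilent arrays, and the authors read spots with Feature Extraction 10.10.1.1. The files deposited per array are scanner output: linear intensity of the spot (median, mean, local background, processed) and quality flags, which are codes and not measurements. The table deposited for the series holds log2 values that the authors had quantile-normalised, and each array matched its own column best. Here the median intensity was quantile-normalised over 60305 probes and log2-transformed. The 105 spots marked as outliers were treated as missing, and 41517 probes passed the background filter. No member spot was saturated, and no 2 arrays held the same values (highest r between arrays 0.996). Symbols came from the files' gene names and accessions through the reference gene tables of Sscrofa11.1, used for names and neighbours alone, and covered 23914 probes.

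All kept probes were fitted together by limma 3.58.1 (R 4.3.3), with Benjamini-Hochberg adjustment at 0.05. The model had breed plus temperature for contrasts over the breeds or temperatures, and 1 mean per group for contrasts within a breed and for the interaction. The study also modelled pen, slaughter day and parents, which the labels do not give, so the fits here lack them. Pigs of the same pen or slaughter day had the same temperature, so p-values that ignore these terms may be too small. Marker means were compared by 100000 permutations of temperature within breeds, and relations with the macrophage mean by 100000 permutations, both two-sided. The fits were tested on simulated data. The members and gene lists were chosen with earlier results of these data known. Named genes are the members, by their brightest kept probe, and up to 3 rises and 3 falls per list, the largest among those called, apart from 1 gene that is not reported here. The number of arrays limits the precision.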

Additional observations from a re-analysis of the deposited data

Results flagged for a closer look

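Each gene was examined in each group for an array standing apart, by Dixon's ratio of its gap to the whole range of the group. Of 54 combinations 2 were above the critical value, where chance gives about 1 in 20. CTSK was low on Creole TN replicate 1 (ratio 0.682), the array that was also lowest of all 35 for CTSS, CTSH and CTSZ. CTSS was low on F1 HS replicate 5 (ratio 0.764). CTSK and CTSS passed the test between HS and TN without either array.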

How the results depend on the processing

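No paired analysis was possible because the replicate numbers were given in accession order and so link no arrays across groups. The 3 members called between HS and TN were 6 with array weights and 0 with the macrophage mean, the leukocyte mean or array brightness as a covariate, and 2 to 6 when 1 array was left out. The share of all genes called in these settings is not given here. With array weights the number called higher also rose for macrophage markers (9 to 13) and hydrolases (9 to 12), and fell for other proteases (2 to 1). The macrophage covariate turned CTSB (-0.25), CTSD (-0.18), CTSH (-0.20), CTSK (-0.0217), CTSS (-0.0318), CTSZ (-0.25) and LAMP-1 (-0.0847) negative, and the leukocyte covariate CTSB (-0.0651), CTSD (-0.0009) and CTSZ (-0.012). Scaling to spike-in controls turned CTSL1 positive (0.0242). On slide 2 the values were -0.37 for CTSB, -0.39 for CTSD, -0.43 for CTSH, -0.0414 for CTSK, -0.30 for CTSS, -0.47 for CTSZ, -0.0533 for LAMP2, 0.0725 for CTSL1 and -0.10 for LAMP-1. CTSH was not called without a filter (adjusted p = 0.0547). Between Creole and Large White the count of 0 was 1 with the macrophage covariate (CTSK, -0.24) and 2 with the leukocyte covariate (CTSS 0.36, CTSZ 0.53), and between F1 and Large White 1 with the macrophage covariate (CTSK). Within Creole it was 0 to 1 when 1 array was left out, and in the other comparisons 0. The endothelial marker mean (-0.18) was not called under median scaling (-0.12) or scaling to spike-in controls (-0.0414). Over 12 alternatives, the number called higher ran from 1 to 12 for hydrolases (9 as reported), 1 to 5 for other membrane proteins (4), 0 to 3 for other proteases (2), 0 to 6 for biogenesis genes (3), 0 to 3 for autophagy genes (2), 1 to 13 for macrophage (9), 1 to 6 for leukocyte (2) and 0 to 9 for fibroblast markers (6), and the number of muscle markers called lower from 0 to 12 (3). The causes were not tested. The other alternatives (other scalings, background corrections, filters, slide blocks, the deposited table, all kept probes averaged, no breed term, TN arrays alone) changed no count of called members by over 1.5 times.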
